A study of Mus musculus with 24 samples.

Results

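Dusp6, Dusp4, Spry2, Spry4, Spred1, Etv4, Etv5 and Myc are transcribed in response to signalling through the ERK kinases, and most of them then restrain that signal. They were followed here through the route from mouse embryonic stem cells to germ cells, as 8 of 18193 genes that the array annotation pairs with at least 1 probe set of their own. The members were taken by name: every probe set listed for one of these symbols alone was used, which gave 22 of 45101 probe sets on the array. Spred1 had 8 of them, Spry4 had 4, Etv5 had 3, Spry2 and Etv4 had 2 each, and Dusp6, Dusp4 and Myc had 1 each.

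Growth factors such as the fibroblast growth factors (FGFs) bind receptor tyrosine kinases, which pass the signal through RAS, RAF and MEK to ERK. Active ERK switches on transcription factors and, with them, its own inhibitors: dual-specificity phosphatases that remove the activating phosphates from ERK, and Sprouty and SPRED proteins that act higher up, at the receptor and RAF. In mouse pluripotent cells FGF4 acting through ERK moves cells out of the naive state, and the 2i medium holds them there with one inhibitor of MEK and one of the kinase GSK3. In the published protocol, epiblast-like cells are induced by taking cells out of that medium and giving activin A and basic FGF.

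RNA was measured on Affymetrix mouse expression arrays in 24 samples of C57BL/6 origin, in 12 groups of 2 biological replicates. On unamplified arrays the groups were embryonic stem cells (ESCs) kept feeder-free in 2i+LIF, epiblast-like cells (EpiLCs) on days 1, 2 and 3 of their induction from those ESCs, PGCLCs, the primordial germ cell-like cells made from day 2 EpiLCs, and epiblast stem cells (EpiSCs), lines that were taken from epiblast at embryonic day 5.75. On the other 12 arrays the RNA, 5 ng or the equivalent of 500 cells, was first copied by 22 cycles of PCR, and these amplified arrays held ESCs, day 2 EpiLCs, EpiSCs and PGCLCs together with cells from embryos, namely epiblast of embryonic day 5.5 to 6.0 and primordial germ cells (PGCs) of embryonic day 9.5. The study set EpiLCs beside the pregastrulation epiblast and PGCLCs beside the PGCs as their counterparts in the embryo. The sources used here do not give the lines, litters or animals behind each array, the isolation of PGCLCs and PGCs or the medium of EpiSCs, so p-values measure only the spread between these arrays.

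Values are deposited intensities on a linear scale, with no unit of molecules, so levels are compared between groups for one gene and never between genes. A gene represented by several probe sets is shown by the one with the highest mean over all 24 arrays. Differences are log2 ratios ± standard error (SE) from limma, with n = 2 arrays per group. A gene was called higher or lower where the adjusted p (Benjamini-Hochberg over all genes of a comparison) was under 0.05 and the change was at least 2-fold, a log2 difference of 1. Signals under 28.1 on unamplified and 24.04 on amplified arrays counted as not above background. All 8 genes had at least 2 arrays above that level in both kinds of array and were tested among 14934 and 15608 genes.

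Replicates correlated across genes with r of at least 0.975 and at most 0.991 on unamplified arrays and from 0.957 to 0.972 on amplified ones, apart from 0.911 for amplified EpiSCs. The ratio of 5′ to 3′ signal of the Actb control lay between 0.792 and 0.874 on unamplified arrays, whereas after amplification it lay between 0.0503 and 0.206. For the Gapdh control it lay between 1.13 and 1.21 and, after amplification, between 0.239 and 0.982. Both controls thus lost 5′ signal after amplification, Actb on every array far more than Gapdh on some. Naive markers (Klf4, Esrrb and 6 others) summed to 26600 and 26770 in ESCs against 2684 and 2875 in day 2 EpiLCs, and germ cell markers (Dppa3, Prdm1 and 5 others) to 22940 and 23400 in PGCLCs against 1958 and 2157 in day 2 EpiLCs, as the labels say. Of 8 EpiSC markers 7 were above background in unamplified EpiSCs. Fibroblast markers were also high in EpiSCs: the 11 on the array, among them Col1a2 and Tagln, were all above background there and summed to 10450 and 10540. On any other unamplified array they summed to at most 1982, reached in day 3 EpiLCs, against 199 and 208 in the feeder-free ESCs. Which cells made this RNA was not tested. Because these are bulk samples, fewer cells with a transcript and less of it per cell cannot be told apart.

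Promoter windows of 250 bases before and 50 after a start site were found in RefSeq (build GRCm38.p6) for 4 of the 8 members, Dusp6, Spry2, Spred1 and Etv5. The windows of Dusp6 and Spry2 are shown because these genes had the largest and the smallest difference between ESCs and day 2 EpiLCs, and both windows of Etv5 because they differ in the core that ETS factors, the family of ETV4 and ETV5 themselves, can bind. Capitals mark that core, GGAA, read on either strand (TTCC on the strand shown). The windows are chr10:99262981-99263280 on the plus strand for Dusp6, chr14:105896770-105897069 on the minus strand for Spry2, and chr16:22439521-22439820 and chr16:22438319-22438618, both on the minus strand, for Etv5.
Dusp6: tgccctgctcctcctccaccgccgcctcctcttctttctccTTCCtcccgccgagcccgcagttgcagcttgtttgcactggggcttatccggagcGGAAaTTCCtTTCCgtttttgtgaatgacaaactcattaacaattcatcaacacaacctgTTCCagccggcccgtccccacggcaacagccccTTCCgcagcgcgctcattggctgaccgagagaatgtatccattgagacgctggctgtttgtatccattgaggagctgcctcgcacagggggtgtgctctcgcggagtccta
Spry2: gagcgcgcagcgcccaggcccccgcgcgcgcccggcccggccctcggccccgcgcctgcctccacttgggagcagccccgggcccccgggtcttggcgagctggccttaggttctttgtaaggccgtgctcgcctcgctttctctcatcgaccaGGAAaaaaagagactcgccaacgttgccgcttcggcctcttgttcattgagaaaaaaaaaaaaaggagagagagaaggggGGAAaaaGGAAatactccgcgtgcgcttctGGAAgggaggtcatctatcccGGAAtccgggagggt
Etv5, first window: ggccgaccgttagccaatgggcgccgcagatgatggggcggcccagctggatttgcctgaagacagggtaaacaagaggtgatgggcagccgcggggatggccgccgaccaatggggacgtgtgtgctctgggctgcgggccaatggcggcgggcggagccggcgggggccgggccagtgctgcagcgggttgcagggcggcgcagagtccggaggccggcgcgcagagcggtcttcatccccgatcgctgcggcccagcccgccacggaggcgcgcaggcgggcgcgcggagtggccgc
Etv5, second window: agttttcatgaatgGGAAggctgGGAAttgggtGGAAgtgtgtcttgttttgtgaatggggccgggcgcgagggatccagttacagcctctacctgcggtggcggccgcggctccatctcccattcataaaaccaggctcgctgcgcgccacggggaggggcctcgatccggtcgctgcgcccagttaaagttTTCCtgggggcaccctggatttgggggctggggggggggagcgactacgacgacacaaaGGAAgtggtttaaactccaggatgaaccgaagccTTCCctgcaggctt

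Dusp6 held 6 GGAA cores in its window, Spry2 and Spred1 held 5 each, and Etv5 held 0 in the first and 6 in the second of its windows. Such a core is common: 96% of 32851 windows of this length held at least 1, so its presence sets none of these genes apart. The longer ETS motif CCGGAAG, which contains GGAA, was in none of the 5 windows and in 8.86% of all windows. TGACG, the core of the cyclic AMP response element, was in none of the 5 and in 20.8% of all. The AP-1 motif TGANTCA, bound by FOS and JUN, and the E-box CACGTG, bound by MYC, were also in none of the 5, and in 7.81% and 7.15% of all. Motifs were searched on both strands, and these matches describe letters and not bound sites.

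Within 1 day of EpiLC induction most of the 8 genes rose. Dusp6, Dusp4, Spry4, Etv4 and Myc rose in day 1 EpiLCs against ESCs, so that 5 of 8 members were called, where 12% of all tested genes were called in either direction. The median log2 difference was 2.79 over the members and -0.0334 over all tested genes. Spred1 and Etv5 were higher by less than 2-fold, and Spry2 by 1.14-fold. The same 5 genes stood higher on day 2 than in ESCs, where 16.5% of tested genes were called and the medians were 2.07 and 0.00651. Between days 1 and 2 limma called none of the 8 (8.04% of tested genes), with 5 at an unadjusted p under 0.05, and from day 2 to day 3 Myc alone fell (4.26%), while Dusp6 and Spry2 were 1.58-fold and 1.8-fold higher, short of 2-fold.

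**Figure D1:**
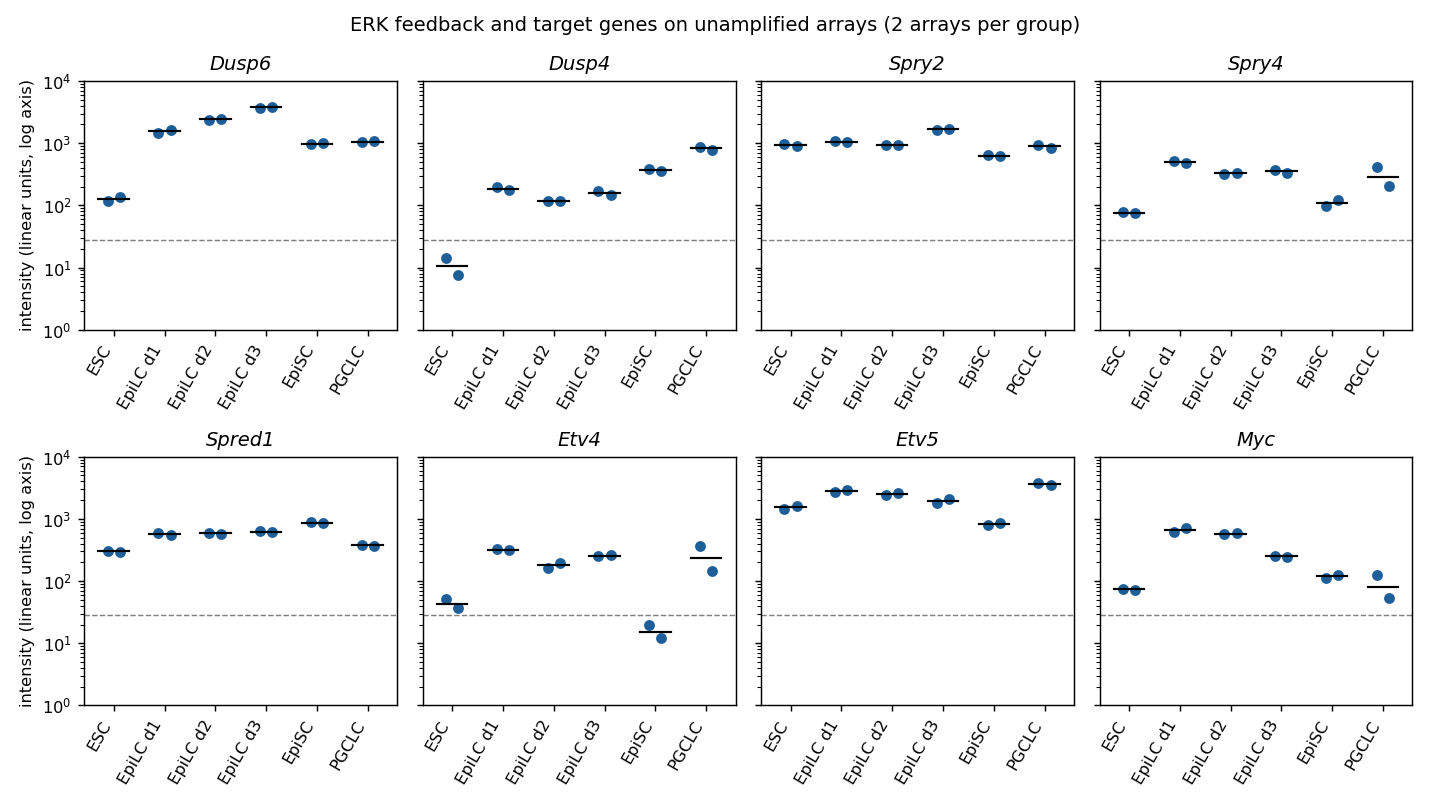
Deposited intensity (linear units on a log axis) of the 8 genes in the 6 unamplified groups. Points are single arrays, 2 per group, black bars are their geometric means and the dashed line marks the background level of 28.1. Dusp6, Dusp4, Spry4, Etv4 and Myc are lowest or near lowest in ESCs, Spry2 ranges from 632 in EpiSCs to 1683 on day 3, and Etv4 is below the line in EpiSCs.

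Dusp6 encodes the cytoplasmic phosphatase of ERK that is widely used as a readout of FGF and ERK activity. Its intensity was 116 and 135 in the 2 ESC arrays, 1485 and 1659 on day 1, 2392 and 2426 on day 2 and 3724 and 3872 on day 3 of EpiLC induction. EpiSCs gave 957 and 1010, and PGCLCs gave 1036 and 1071. No 2 groups overlapped, though EpiSCs and PGCLCs lay close together, with a log2 difference of 0.10 ± 0.08 (adjusted p = 0.311 by limma). Dusp6 was 12.5-fold higher on day 1 than in ESCs (log2 3.65 ± 0.08, adjusted p = 2.27e-10) and 19.2-fold higher on day 2 (4.27 ± 0.08, adjusted p = 5.9e-11). Each further day added less than 2-fold, with log2 differences of 0.62 ± 0.08 and 0.66 ± 0.08. It fell by 1.29 ± 0.08 on the log2 scale from day 2 EpiLCs to EpiSCs and by 1.19 ± 0.08 to PGCLCs, and in both it was still higher than in ESCs, by 7.86-fold and 8.42-fold.

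Dusp4 encodes the nuclear counterpart of DUSP6, a phosphatase of ERK and other MAP kinases, and it had a different course. Intensities in ESCs, 14.5 and 7.63, were not above background on either array. They were 197 and 176 on day 1, 117 and 120 on day 2, 171 and 149 on day 3, 381 and 363 in EpiSCs and 869 and 789 in PGCLCs. Every other group thus stood above ESCs, and PGCLCs stood above all the rest. The rise over ESCs was at least 6.63-fold on day 1 (adjusted p = 2.4e-07), at least 4.21-fold on day 2 (4.91e-07), at least 13.2-fold in EpiSCs (1.29e-08) and at least 29.5-fold in PGCLCs (5.46e-09, all by limma). From day 2 EpiLCs, where Dusp6 fell, Dusp4 rose 3.15-fold to EpiSCs (log2 1.66 ± 0.23, adjusted p = 0.000123) and 7.01-fold to PGCLCs (2.81 ± 0.23, adjusted p = 2e-06). The 3 EpiLC days lay between ESCs and EpiSCs, and their arrays did not overlap. Day 2 minus day 1 gave -0.66 ± 0.23, short of a call (adjusted p = 0.0525 by limma). Day 3 was not called against day 1 or day 2 (adjusted p = 0.469 and 0.215), which does not show that levels were equal.

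Spry2 and Spry4 encode Sprouty proteins, inhibitors of receptor tyrosine kinase signalling upstream of ERK. Spry2 was already abundant on the ESC arrays, at 963 and 892. It was 1089 and 1027 on day 1, 944 and 923 on day 2, 1651 and 1716 on day 3, 648 and 617 in EpiSCs and 944 and 842 in PGCLCs. Its whole range over the group means was thus from 632 in EpiSCs to 1683 on day 3, and in the middle of that order PGCLCs, ESCs and day 2 EpiLCs overlapped. Spry2 was called in none of the 8 comparisons made on unamplified arrays. Of all 15 pairs of groups 1 was called, its extremes, with EpiSCs below day 3 EpiLCs by a log2 difference of -1.41 ± 0.07 (adjusted p = 6.02e-08). Among the 8 comparisons the step from day 2 to day 3, of log2 0.85 ± 0.07 (adjusted p = 1.92e-05), came closest.

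Spry4 had its lowest values in ESCs, at 78.1 and 74.8. It was 511 and 485 on day 1, 323 and 337 on day 2 and 367 and 336 on day 3, which overlapped day 2. EpiSCs gave 96.9 and 123, just above ESCs with no call (log2 0.51 ± 0.25, adjusted p = 0.0982). The 2 PGCLC arrays disagreed, at 410 and 205, and spanned all values of days 2 and 3. Spry4 was 6.51-fold higher on day 1 than in ESCs (2.70 ± 0.25, adjusted p = 8.06e-06), 3.02-fold lower in EpiSCs than in day 2 EpiLCs (-1.60 ± 0.25, adjusted p = 0.00024) and 3.79-fold higher in PGCLCs than in ESCs (1.92 ± 0.25, adjusted p = 5.5e-05).

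The size of the Spry4 difference varied between probe sets. In day 2 EpiLCs against ESCs 3 of the 4 were above background on at least 1 array of both groups, with log2 differences from 0.53 to 2.11, and 1 of these, the one shown, was called. The fourth was not above background in ESCs and was higher by at least 1.23-fold, also with a call. In EpiSCs against day 2 EpiLCs 2 probe sets were measured in both groups, at -1.60 and -0.98, and the other 2 were not above background in EpiSCs.

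Spred1 recruits the RAS inactivator neurofibromin to the membrane. Its intensities were 307 and 294 in ESCs, 589 and 558 on day 1, 597 and 580 on day 2, 642 and 609 on day 3, 877 and 865 in EpiSCs and 383 and 368 in PGCLCs. EpiSCs were above all other groups, the 3 EpiLC days formed one level, and PGCLCs were close to ESCs. The EpiLC level was 1.96-fold that of ESCs on day 2 (log2 0.97 ± 0.07, adjusted p = 5.92e-07), just short of the 2-fold minimum. In EpiSCs Spred1 was 2.9-fold higher than in ESCs (1.53 ± 0.07, adjusted p = 8.98e-09), and all 7 of its measurable probe sets were called higher there, with log2 differences from 1.35 to 1.87. From day 2 EpiLCs to PGCLCs the shown probe set gave -0.65 ± 0.07 and was not called, whereas 5 of the 7 were called lower, at up to -1.82. The eighth probe set was not above background on any array.

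**Figure D2:**
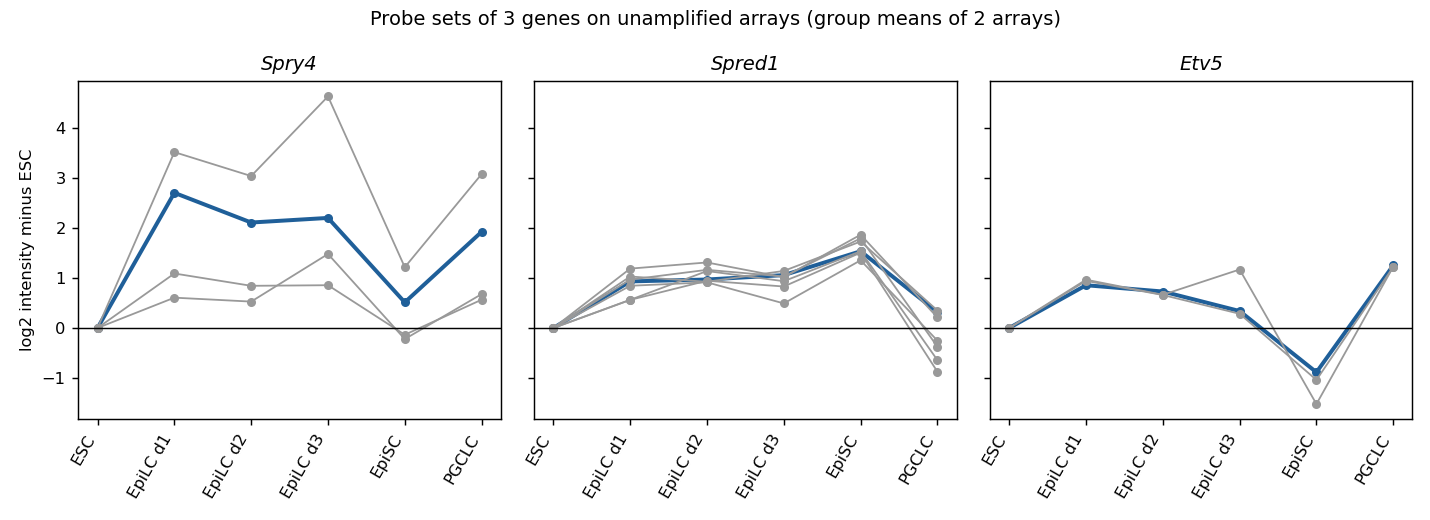
Log2 intensity minus the ESC mean for each probe set of Spry4, Spred1 and Etv5 with signal above background on at least 2 unamplified arrays, as means of 2 arrays per group. The thick blue line is the probe set shown for the gene. The 4 Spry4 probe sets separate, and the uppermost of them was not above background in ESCs and EpiSCs, so its height has no exact size. The 7 of Spred1 part in PGCLCs, and the 3 of Etv5 run together except on day 3 and in EpiSCs.

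Etv4 and Etv5 encode ETS transcription factors of the PEA3 group, which FGF signalling induces and which carry part of its transcriptional output. Etv4 was 51.1 and 37.1 in ESCs, 327 and 312 on day 1, 161 and 198 on day 2 and 251 and 259 on day 3. EpiSCs, at 19.4 and 12.2, were not above background, and PGCLCs gave discordant values of 367 and 145. EpiSCs were thus below every other group, while PGCLCs spanned the EpiLC values. Etv4 was 7.33-fold higher on day 1 than in ESCs (log2 2.87 ± 0.36, adjusted p = 9.3e-05) and at least 6.36-fold lower in EpiSCs than in day 2 EpiLCs (adjusted p = 1.19e-05). It was also at least 1.55-fold lower in EpiSCs than in ESCs (adjusted p = 0.00441). That last call was lost without the second EpiSC array (adjusted p = 0.0525) and when values were raised to the background level (log2 -0.63 ± 0.35, adjusted p = 0.158). In PGCLCs Etv4 was 5.3-fold higher than in ESCs (2.41 ± 0.36, adjusted p = 0.000196). Against day 2 EpiLCs it gave 0.37 ± 0.36, and without the lower PGCLC array 1.04 ± 0.27, which was called (adjusted p = 0.00752).

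Etv5 was abundant throughout and highest in PGCLCs. Intensities were 1447 and 1624 in ESCs, 2683 and 2866 on day 1, 2455 and 2632 on day 2, 1777 and 2116 on day 3, 803 and 858 in EpiSCs and 3800 and 3510 in PGCLCs. Both PGCLC arrays were above, and both EpiSC arrays below, every other unamplified array. Etv5 was 3.06-fold lower in EpiSCs than in day 2 EpiLCs (-1.62 ± 0.09, adjusted p = 1.35e-07) and 2.38-fold higher in PGCLCs than in ESCs (1.25 ± 0.09, adjusted p = 6.16e-07). Its EpiLC values were 1.81-fold and 1.66-fold those of ESCs on days 1 and 2, under the 2-fold minimum. All 3 probe sets were called lower in EpiSCs than in day 2 EpiLCs, with log2 differences from -2.19 to -1.62. Over the 6 group means Etv4 and Etv5 correlated with r = 0.901, Spry4 and Etv4 with r = 0.897, and Spred1 and Etv5 with r = -0.448, on points that share the same arrays.

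Myc encodes a transcription factor that promotes growth and proliferation. Its intensity was 75.5 and 73.0 in ESCs, 625 and 713 on day 1, 570 and 595 on day 2, 254 and 246 on day 3, 114 and 125 in EpiSCs and 124 and 52.8 in PGCLCs. Days 1 and 2 stood above all else, day 3 lay between, and PGCLCs spanned the ESC level. Myc was 8.99-fold higher on day 1 than in ESCs (3.17 ± 0.29, adjusted p = 7.8e-06). It fell 2.33-fold from day 2 to day 3 (-1.22 ± 0.29, adjusted p = 0.00975), a call that was lost without either day 2 array or the second day 3 array (adjusted p = 0.0535 to 0.0633). Myc was 4.88-fold lower in EpiSCs than in day 2 EpiLCs (-2.29 ± 0.29, adjusted p = 5.28e-05) and 7.19-fold lower in PGCLCs (-2.85 ± 0.29, adjusted p = 8.97e-06). Of the 10 genes of the MYC network examined beside it, 1 was called higher on day 1 (Mycn, 2879 against 1434 in ESCs) and 0 were called in EpiSCs against day 2 EpiLCs. Over all tested genes 12% and 18.9% were called in these comparisons.

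EpiSCs and EpiLCs both correspond to the epiblast, and the 8 genes separated them. Against day 2 EpiLCs, EpiSCs had lower Dusp6, Spry4, Etv4, Etv5 and Myc and higher Dusp4, which made 6 of 8 members called where 18.9% of tested genes were called in either direction. The medians were -1.44 over the members and 0.0202 over all. Spry2 and Spred1 gave -0.56 ± 0.07 and 0.57 ± 0.07 and were not called. Against ESCs, EpiSCs had higher Dusp6, Dusp4 and Spred1 and lower Etv4, 4 of 8 where 24.4% of tested genes were called. In the 2 comparisons other scalings of the arrays moved the all-gene median from 0.0202 to -0.106 and from 0.0222 to -0.105. No member call was lost with them, and Etv5 gained one against ESCs (-1.01 ± 0.10). Fibroblast markers moved with this group, and the part of any fibroblast RNA in these differences was not tested.

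Most of the other ERK-dependent targets were higher in EpiSCs than in day 2 EpiLCs, a comparison in which 18.9% of all tested genes were called in either direction. Of 13 further ERK-dependent targets on the array, 10 were higher in EpiSCs than in day 2 EpiLCs and 0 were lower, with a median log2 difference of 1.75 against 0.0202 over all genes. Among them Emp1, a membrane protein, had means of 1797 and 39.3, the ephrin receptor gene Epha4 201 and 7.07, the immediate-early gene Fos 591 and 27.3, and Phlda1 869 and 145. Of 18 further feedback inhibitors 5 were higher and 0 lower (median 0.346), including Rasa3 (289 against 46.1), the nuclear ERK phosphatase gene Dusp5 (205 against 38.2) and Errfi1, an inhibitor of the EGF receptor (796 against 279). Among 11 tested FGF ligands and receptors, Fgf8, Fgfr2 and Fgfr3 were higher and Fgf4 was lower. Fgf8 was 641 in EpiSCs and not above background in EpiLCs, and Fgf4, the ligand of pluripotent cells, was 78.3 against 1256. Of 17 cascade genes Sos2 and Rras were higher and the adaptor gene Gab1 was lower, at 294 against 1388, no larger a share than over all genes. Fibroblast markers were high in the same EpiSC arrays, and the part of any fibroblast RNA in these differences was not tested.

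In day 2 EpiLCs against ESCs, where 16.5% of all tested genes were called, 5 of 18 further inhibitors were higher and 0 lower (median 0.287 against 0.00651 over all), with Dusp9 at 1191 against 97.4, Spry1 at 254.5 against 82.6 and Errfi1 at 279 against 107. Dusp5, at 38.2, was above background in day 2 EpiLCs and not in ESCs. Of the 13 other targets Egr2 was called higher, at a mean of 14.7 that was itself below background, and Fos, Epha4 and Emp1 were lower, with Emp1 falling from 1149 to 39.3. Fgf5 rose from below background to 878, and Fgf15 and Fgfr2 were also higher among 11 FGF genes. Of 17 cascade genes 3 were higher (Rras2, Braf and Rps6ka3) and Sos1, an activator of RAS, was lower.

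**Figure D3:**
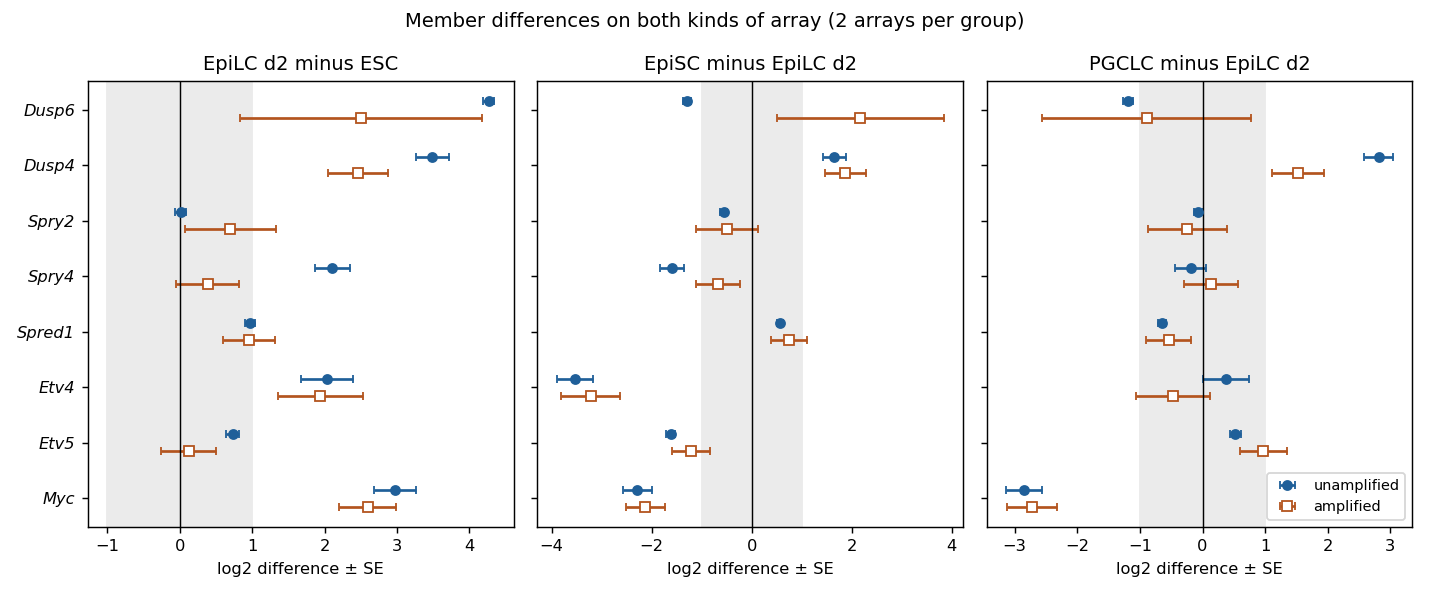
Log2 difference ± SE of the 8 genes for day 2 EpiLCs minus ESCs, EpiSCs minus day 2 EpiLCs and PGCLCs minus day 2 EpiLCs, on unamplified (filled circles) and amplified arrays (open squares), 2 arrays per group. The grey band spans the 2-fold minimum. In the middle panel Etv4, Etv5 and Myc are left of the band on both kinds of array and Dusp4 right of it, and the bars of amplified Dusp6 are wide.

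When EpiLCs became PGCLCs, the members parted. Dusp4 rose, Dusp6 and Myc fell, and the other 5 were not called, so 3 of 8 were called where 20.6% of tested genes were called in either direction. The medians were close, at -0.126 for the members and -0.0897 for all genes, and median centring moved the latter to 0.0145 with no member call changed. Against ESCs, PGCLCs had higher Dusp6, Dusp4, Spry4, Etv4 and Etv5, 5 of 8 where 20.6% of tested genes were called, with medians of 1.59 and -0.0688. Myc was not called, with a log2 difference of 0.13 ± 0.29 (95% confidence interval -0.51 to 0.76), which became -0.49 without the first PGCLC array and 0.74 without the second. The second PGCLC array was the lower one for each of the 8 genes except Dusp6, and by more than 2-fold for Etv4 and Myc.

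Around the members, 3 FGF ligands were lower in PGCLCs than in day 2 EpiLCs and 2 receptors higher. Fgf4 was 30.6 in PGCLCs against 1256 in day 2 EpiLCs, and Fgf5 (878 in EpiLCs) and Fgf15 (112) were not above background, whereas Fgfr3 was 361 against 74.8. These were 5 of 11 tested genes, where 20.6% of all tested genes were called, with a median of -0.418 against -0.0897 over all. Among 18 further inhibitors 2 were higher (Dusp5, 282 against 38.2, and Rasa3) and 3 lower (Dusp9, 252 against 1191, and Spred3, 37.7 in EpiLCs and not above background in PGCLCs, among them). Of 17 cascade genes 1 was higher and 5 lower, among them Gab1 (221 against 1388) and Shc1 (109 against 356). Of the 13 other targets 5 were higher, including Epha4, Fos and Ier3, and 2 were lower, with Ccnd1, the cyclin D1 gene, at 90.2 against 1014. Endothelial markers summed to 1073 and 1320 in PGCLCs against at most 602 in the other unamplified groups. Of the 8 markers 6 were above background in PGCLCs, as in day 1 EpiLCs, while Cdh5 and Tie1 were not. Pecam1, which is also expressed by germ cells, had a mean of 654. On amplified PGCLC arrays 7 of the 8 were above background, and the part of endothelial RNA in these differences was not tested.

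Amplified arrays gave the comparison with the embryo, at lower precision. In day 2 EpiLCs against ESCs 2 of 8 members were called there, Dusp4 and Myc, where 8.51% of tested genes were called. In the epiblast of embryonic day 5.5 to 6.0 against the same ESCs 3 of 8 were called, Dusp4, Spry4 and Myc, where 11.8% were called. Both comparisons share their ESC arrays. For the shown probe sets the log2 difference was above 0 for all 8 genes in both, with member medians of 1.45 and 1.32 against 0.0204 and -0.0145 over all genes. These include Dusp6, which was not above background in amplified ESCs. Other probe sets went down to -0.30 for Etv5 in EpiLCs and -0.18 for Spred1 in the epiblast. With the replicate number as a block, Etv4 was called too in EpiLCs against ESCs (log2 1.94 ± 0.44, adjusted p = 0.017, against 0.0771 without the block).

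Myc and Dusp4 carried the clearest signal in the epiblast. Myc was 60.4 and 65.1 in amplified ESCs, 325 and 442 in day 2 EpiLCs, 506 and 500 in the epiblast, 122 and 62.0 in EpiSCs, 49.1 and 67.3 in PGCLCs and 93.1 and 48.2 in PGCs. EpiLCs and epiblast thus formed a high level and the other 4 groups a low one, with no overlap between the levels. Myc was 6.05-fold higher in EpiLCs than in ESCs (2.60 ± 0.39, adjusted p = 0.00293) and 8.03-fold higher in the epiblast (3.01 ± 0.39, adjusted p = 0.000945). Dusp4 was 77.1 and 87.7 in ESCs, 625 and 328 in EpiLCs, 609 and 644 in the epiblast, 2371 and 1160 in EpiSCs, 1138 and 1492 in PGCLCs and 1277 and 1987 in PGCs. ESCs were lowest, EpiLCs and epiblast intermediate and the last 3 groups highest, without overlap between these levels, which were drawn from the same values. The last 3 groups were each called above EpiLCs, but none of them above the epiblast (adjusted p = 0.0522 to 0.126 by limma). Dusp4 was 7.61-fold higher in the epiblast than in ESCs (2.93 ± 0.41, adjusted p = 0.00132).

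**Figure D4:**
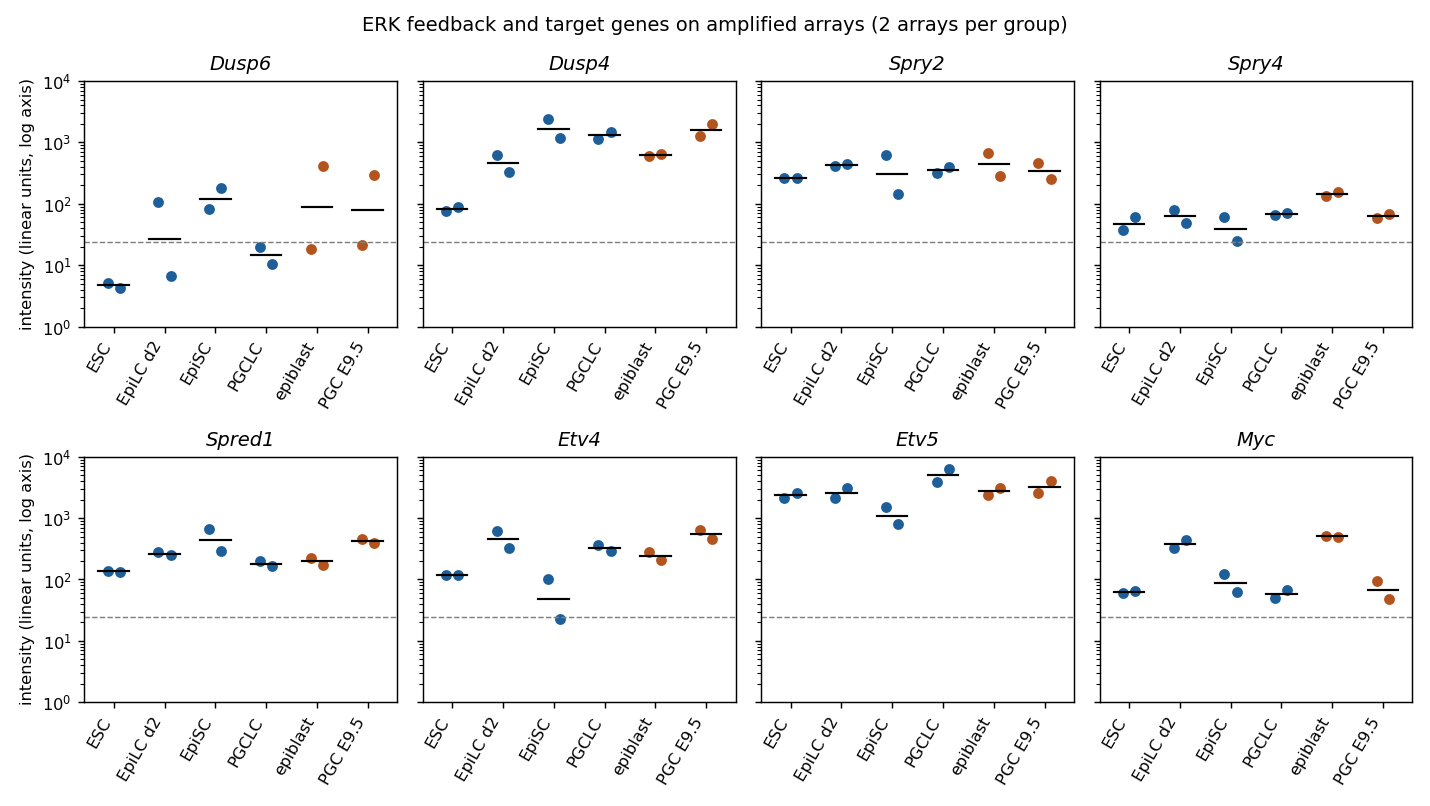
Deposited intensity (linear units on a log axis) of the 8 genes in the 6 amplified groups, with 2 arrays per group, geometric means as black bars and the background level of 24.04 as a dashed line. Blue points are cultured cells and orange points cells from embryos. Myc is high in EpiLCs and epiblast alone, Dusp4 is high in every group but ESCs, and the 2 arrays of a group lie far apart for Dusp6.

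Day 2 EpiLCs and the epiblast were not told apart by the test on these genes. By limma none of the 8 was called between them, where 0.961% of tested genes were called, 1 (Spry4) had an unadjusted p under 0.05, and the arrays of the 2 groups overlapped for Dusp6, Dusp4, Spry2 and Etv5. The largest difference among the other members was that of Spry4, with 80.4 and 47.8 in EpiLCs against 133 and 156 in the epiblast, a log2 difference of -1.21 ± 0.44 (95% confidence interval -2.20 to -0.23, adjusted p = 0.335). The intervals were wide, from -1.38 to 0.45 for Dusp4 and from -0.43 to 2.22 for Etv4, and do not show that levels were equal. The call of Spry4 in the epiblast against ESCs, 3.03-fold (1.60 ± 0.44, adjusted p = 0.0399), was lost without any one of the 4 arrays (adjusted p = 0.0692 to 0.266). Outside the members the immediate-early gene Egr1 did differ, at 871 in EpiLCs and 20.4, below background, in the epiblast, as did Gab1 (1584 against 203). The 10 visceral endoderm markers summed to 1084 and 3268 in the epiblast against at most 417 in EpiLCs, and their part in these differences was not tested.

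EpiSCs differed from the epiblast in the embryo in part as they did from day 2 EpiLCs. Spry4, Etv4, Etv5 and Myc were lower, 4 of 8 members where 11.7% of tested genes were called, with medians of -0.932 and 0.0554. Dusp6, lower in EpiSCs than in day 2 EpiLCs on unamplified arrays, gave 0.45 ± 1.67 against the epiblast, with no call. Of all calls 76.8% were higher, and 66.6% after quantile normalization. Etv4 was 102 and 22.9 in EpiSCs and 277 and 210 in the epiblast (-2.32 ± 0.59, adjusted p = 0.0315). Etv5 was 1502 and 799 against 2398 and 3147 (-1.33 ± 0.38, adjusted p = 0.0491). Spry4 was 61.4 and 24.7 against 133 and 156 (-1.89 ± 0.44, adjusted p = 0.0211). No array of one group reached the other for these genes, yet the 2 EpiSC arrays were themselves far apart in each, by 0.91 to 2.16 on the log2 scale. Of the probe sets measured in both groups, 2 of 4 were called lower for Spry4 and 1 of 3 for Etv5. Myc had the firmest difference, -2.53 ± 0.39 (adjusted p = 0.00277). All 4 calls were lost when only these 2 groups were fitted (adjusted p = 0.0648 to 0.239), and Spry4, Etv4 and Etv5 were lost without the second EpiSC array or either epiblast array (adjusted p = 0.0855 to 0.25), which left between 1 and 4 calls when single arrays were left out. Dusp4 and Spred1 were higher in EpiSCs, at 1.41 ± 0.41 and 1.15 ± 0.36, with no call (adjusted p = 0.0522 and 0.0686). Both were called with the replicate number as a block (0.0354 and 0.02) and without the second EpiSC array (0.0202 and 0.00332), and Spred1 also with the mean of its probe sets (0.0238). The 11 fibroblast markers summed to 3371 and 3442 in these EpiSCs and to at most 348 in the epiblast, and their part was not tested.

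The step into germ cells could be set side by side in culture and in the embryo. From day 2 EpiLCs to PGCLCs on amplified arrays Dusp4 rose and Myc fell, 2 of 8 where 12.7% of tested genes were called. From the epiblast to PGCs of embryonic day 9.5 Myc alone fell, 1 of 8 where 10.5% were called. The fall of Myc was 6.6-fold in culture (-2.72 ± 0.39, adjusted p = 0.00173) and 7.51-fold in the embryo (-2.91 ± 0.39, adjusted p = 0.00138). The difference between those steps was -0.19 ± 0.56 (95% confidence interval -1.44 to 1.06), which does not show that they were equal. Dusp4 gave 1.52 ± 0.41 in culture (adjusted p = 0.0353) and 1.35 ± 0.41 in the embryo (adjusted p = 0.0662, and 0.0455 with the replicate block), and their difference was -0.18 ± 0.58. The culture call of Dusp4 on amplified arrays was lost without the second EpiLC array or either PGCLC array (adjusted p = 0.0893 to 0.221).

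Spred1 was the member whose step differed most between embryo and culture beside its error. It was 228 and 173 in the epiblast and 457 and 399 in PGCs, without overlap, but 278 and 250 in EpiLCs and 198 and 167 in PGCLCs. For the shown probe set the embryo step was 1.10 ± 0.36 (adjusted p = 0.085) and the culture step -0.54 ± 0.36 (adjusted p = 0.395). Their difference was 1.64 ± 0.51 with an adjusted p of 0.27, and 0.0435 when the discordant amplified EpiSC arrays were left out of the fit. Over the 7 probe sets measured in both embryo groups the step ran from 0.16 to 1.13, with 0 called. In culture 6 were measured in both groups, from -1.48 to -0.37, and 3 were called lower. The mean of the Spred1 probe sets gave a culture step of -1.01 ± 0.26, which was called (adjusted p = 0.0332 by limma). With the replicate block the embryo step was called (adjusted p = 0.0247), and so was the gap between PGCs and PGCLCs (1.23 ± 0.28, adjusted p = 0.0377). By limma none of the 8 was called in this contrast of steps, where 0.513% of tested genes were called, and none without the block between PGCs and PGCLCs, where 2.9% were. Spred1 was the 1 member with an unadjusted p under 0.05 in either. PGC arrays also held erythroid RNA, with the 7 markers at 4028 and 11130 against at most 443 on other amplified arrays, and fibroblast markers at 829 and 2145, and the part of either in the Spred1 values was not tested.

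PGCs against amplified ESCs showed higher Dusp4, Spred1 and Etv4, 3 of 8 where 14.1% of tested genes were called. Dusp4 was 19.4-fold higher (4.28 ± 0.41, adjusted p = 0.000118). Spred1 was 3.14-fold higher (1.65 ± 0.36, adjusted p = 0.012), from 138 and 134 in ESCs to the PGC values given above. Of its 8 probe sets 7 were above background on at least 1 array of both groups, and 2 of these were called, with log2 differences from 0.08 to 1.81. The mean of its probe sets, which takes in the eighth without signal, gave 0.65 ± 0.26 with no call (adjusted p = 0.143). That of Etv4 gave 1.09 ± 0.37, also with no call (adjusted p = 0.0839). It averages in a probe set above background on 0 amplified arrays, so it cannot decide whether the Etv4 call holds. Etv4 was 117 on both ESC arrays and 638 and 460 in PGCs (2.21 ± 0.59, adjusted p = 0.0314). The Etv4 call was lost without any one of these 4 arrays and that of Spred1 without 3 of them, at adjusted p from 0.0704 to 0.167. Etv4 in EpiLCs, 619 and 327, and in PGCLCs, 364 and 288, overlapped, as they did on unamplified arrays. Etv5 was again highest in PGCLCs, at 3890 and 6426, against 2104 and 2593 in ESCs, 2116 and 3070 in EpiLCs and 2606 and 3976 in PGCs, which overlapped PGCLCs. Spry2 was 263 and 260 in ESCs and 409 and 441 in EpiLCs, but 681 and 281 in the epiblast, 620 and 146 in EpiSCs, 320 and 402 in PGCLCs and 461 and 252 in PGCs, with replicates too far apart to order the groups.

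Dusp6, the member with the largest difference between day 2 EpiLCs and ESCs on unamplified arrays, could not be read on amplified ones. Its intensities were 5.18 and 4.30 in ESCs, 106 and 6.74 in EpiLCs, 80.7 and 179 in EpiSCs, 18.5 and 419 in the epiblast, 19.6 and 10.6 in PGCLCs and 21.2 and 295 in PGCs. Only 5 of the 12 were above background, and in EpiLCs, epiblast and PGCs one array was above and the other below it. The median gap between replicates, 2.47 on the log2 scale, was larger than that of 99.9% of tested genes, against 19.2% on unamplified arrays. In EpiSCs, whose amplified arrays were both above background, the level was 8.18-fold lower than on unamplified arrays, a log2 shift of -3.03. Other members shifted too, in EpiSCs by 2.16 for Dusp4, -1.49 for Spry4 and -1.07 for Spry2. Etv5 and Myc shifted least of the members, by no more than 0.61 and 0.62 in any cell type. The 2 kinds of array share no scale. None of the Dusp6 comparisons on amplified arrays was called, and the difference between epiblast and ESCs, for example, was 4.22 ± 1.67 (adjusted p = 0.15).

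**Figure D5:**
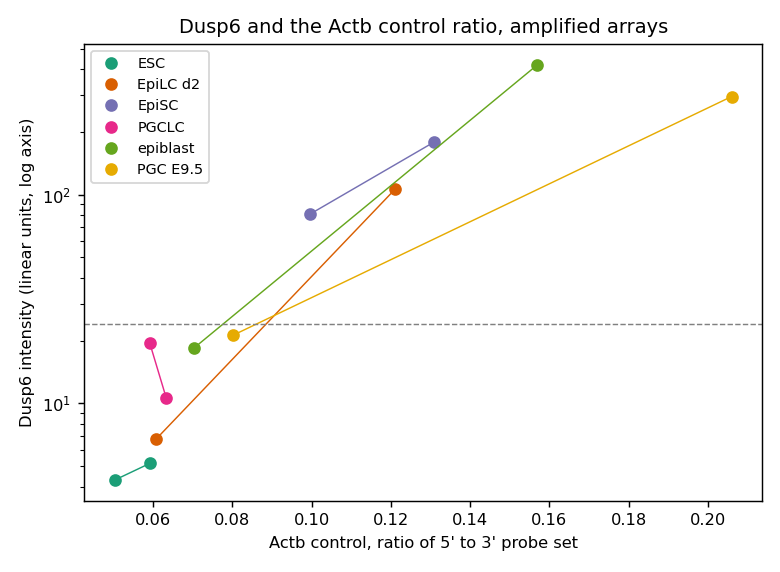
Dusp6 intensity (linear units on a log axis) of the 12 amplified arrays against the ratio of 5′ to 3′ signal of the Actb control on the same array. Lines join the 2 replicates of a group and the dashed line is the background level of 24.04. In 5 of 6 groups the array with more Dusp6 also has the higher ratio, counting ESCs, where both arrays are below the line.

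The replicates of Dusp6 were set beside 2 controls of RNA length. In 5 of 6 amplified groups the array with more Dusp6 also had the higher Actb ratio, for instance 0.157 against 0.0704 in the epiblast and 0.206 against 0.0802 in PGCs, with PGCLCs as the exception. In ESCs, which are counted here, and in PGCLCs both Dusp6 values were below background, so their order is not a measured one. By the Gapdh ratio Dusp6 did so in 4 of 6 groups, and Dusp4 and Spry4 in 5 of 6. The other 7 members followed the Actb ratio in 1 to 4 of 6 groups, and on unamplified arrays Dusp6 followed Actb in 0 and Gapdh in 2 of 6. The part of RNA length in the Dusp6 values was not tested.

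Whether amplification altered a difference was tested on 14553 genes measured on both kinds of array. None of the 8 members was called for day 2 EpiLCs minus ESCs, EpiSCs minus day 2 EpiLCs or PGCLCs minus day 2 EpiLCs, where 0.852%, 0.295% and 0.845% of genes were called. At an unadjusted p under 0.05 by limma there were 1, 0 and 1 members. The largest member effects relative to error were those of Spry4, whose rise from ESCs to EpiLCs was 2.11 ± 0.25 unamplified and 0.39 ± 0.44 amplified (effect -1.72 ± 0.54, adjusted p = 0.179), and of Dusp4, whose rise to PGCLCs was smaller when amplified (effect -1.29 ± 0.50, adjusted p = 0.282). Etv4, Etv5 and Myc gave the same direction for EpiSCs minus day 2 EpiLCs on both kinds of array, with effects of 0.32 ± 0.75, 0.40 ± 0.41 and 0.16 ± 0.52. Dusp6 did not, at -1.29 ± 0.08 unamplified and 2.17 ± 1.67 amplified (effect 3.46 ± 1.83, adjusted p = 0.541).

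Genes whose level ran most like that of Dusp6 over the 12 unamplified arrays were Epcam (r = 0.986), Kcnk1 (0.973), Platr22 (0.972), Gtpbp10 (0.964) and Sestd1 (0.963). Epcam, an epithelial adhesion gene, went from a mean of 1237 in ESCs to 4386 on day 3 and back to 2543 in EpiSCs and 2367 in PGCLCs. Kcnk1, a potassium channel gene, went from 30.6 to 1424, then 462 and 787. To the mean of the 8 members, each standardised, Slc39a14 (0.981), Ubxn7 (0.976), Cdc25a (0.97), Pdzd4 (0.963) and Ebna1bp2 (0.958) were closest. On the 12 amplified arrays Dusp6 was above background on only 5, so its r there cannot show whether the likeness held. Over all 12 r with Dusp6 was 0.273 for Epcam, 0.00131 for Kcnk1, 0.0129 for Platr22, 0.626 for Gtpbp10 and 0.481 for Sestd1. With the members' mean it was 0.72 for Slc39a14, 0.298 for Ubxn7, 0.2 for Cdc25a, 0.689 for Pdzd4 and 0.497 for Ebna1bp2. These points share arrays and cell types, and the values rank likeness only.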

How the data were processed

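Per the labels, total RNA was made into biotinylated cRNA by the standard Affymetrix one-cycle protocol, and 12 of 24 samples were amplified by PCR first. The deposited values are 1 linear intensity per probe set and array. The sources used here do not name the software or normalization by which the authors made them. Their number of arrays limits the precision.

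Genes were named from the platform annotation, using the 34945 probe sets with a single symbol. All values below 4.2, the 10th percentile over the whole table, were set to that floor before taking log2. A gene was tested where at least 2 of 12 arrays exceeded the 40th percentile of their set, which is called the background level. The differences come from limma 3.58.1, run in R 4.3.3 (lmFit, eBayes with an intensity trend, 1 mean per group over the 12 arrays of a set, 6 residual degrees of freedom) and tested two-sided. The effect of amplification was fitted on all 24 arrays. "At least" folds are computed against the background level. An exact permutation test of 2 arrays against 2 cannot go below p = 0.333, so none is given. The procedure was tested on simulated data.

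Whether replicate numbers pair the arrays was checked on the residuals. On amplified arrays same-numbered residuals had r over 0.1 for 15 of 15 pairs of groups (median 0.371), and on unamplified arrays for 3 of 15 (median 0.0545). The labels also give an array code, whose meaning they do not state. It matches the replicate number on all 12 amplified arrays, so the block by number is also a block by code. On unamplified arrays replicate 2 has 1 code, and replicate 1 has 2 codes, one shared by ESCs and EpiLCs and the other by EpiSCs and PGCLCs. Blocked values are given where they change an amplified call.

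The members, the lists of FGF genes, inhibitors, cascade genes, targets, MYC partners and cell type markers, and the tests were chosen with earlier results of these data known. From each list up to 4 called genes per comparison were named, by size of difference, and 5 genes each by likeness to Dusp6 and to the members' mean. Motifs and promoters came from RefSeq windows. Alternatives tried were the floor, an added offset of 16, the filter, other scalings, the mean of probe sets, single probe sets, no trend, no minimum fold, fits of the compared groups alone, the replicate block, and leaving out arrays. A block by array code was added after seeing the data.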

Additional observations from a re-analysis of the deposited data

Results flagged for a closer look

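None of the 8 members was called in the 4 tests of a difference of differences with all arrays, though Spred1 was for embryo against culture without the amplified EpiSC arrays (1.64 ± 0.29, adjusted p = 0.0435 by limma). Among the other genes of the pathway lists 3 were called, in 6 tests. For Fgf5 the fitted effect of amplification on PGCLCs minus day 2 EpiLCs was 1.99 ± 0.34 on the log2 scale (adjusted p = 0.00957), but its PGCLC levels were below background on both kinds of array, so the falls have no exact size and cannot be ordered. Egr1 rose from epiblast to PGCs in the embryo and fell from day 2 EpiLCs to PGCLCs in culture (difference 5.02 ± 0.61, adjusted p = 0.0111). Its epiblast level was below background, so the rise in the embryo and this difference have no exact size. Its difference between day 2 EpiLCs and ESCs was larger on amplified arrays by 6.83 ± 0.47 (adjusted p = 1.91e-06), and that between PGCLCs and day 2 EpiLCs differed by -3.03 ± 0.47 (adjusted p = 0.00529). Fos, another immediate-early gene, differed between the labellings in the same comparisons, by 3.54 ± 0.44 (adjusted p = 0.000918) and -2.25 ± 0.44 (adjusted p = 0.0226). Groups of 2 arrays are too small for an outlier test.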

How the results depend on the processing

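No member call changed direction under any alternative, and 5 of 8 unamplified comparisons kept their count of called members within 1.5 times under every setting tried. With no minimum fold the counts of called members were 1 for day 2 minus day 1 EpiLCs, 4 for day 3 minus day 2 and 5 for unamplified PGCLCs minus day 2 EpiLCs. With no filter 2 members were called for amplified EpiSCs minus epiblast and 1 for PGCLCs minus day 2 EpiLCs. With only the compared groups fitted these counts were 0 and 1, and 2 for PGCs minus epiblast. With the replicate block they were 3 for PGCs minus epiblast and 1 for PGCs minus PGCLCs. Without the amplified EpiSC arrays 5 were called for PGCs minus epiblast, 1 for PGCs minus PGCLCs and 1 (Spred1) for embryo against culture. The mean of probe sets, which for Etv4 and Spred1 takes in a probe set without signal on amplified arrays, left 1 for PGCs minus ESCs. Leaving out single arrays gave 0 to 1 for day 3 minus day 2 EpiLCs, 1 to 4 for amplified EpiSCs minus epiblast, 1 to 2 for amplified PGCLCs minus day 2 EpiLCs and 1 to 2 for PGCs minus ESCs. On unamplified arrays neither the replicate block nor a block by array code, which was chosen after seeing the data, changed a member call. Within the code shared by all replicate 2 arrays the 18 called differences that involve EpiSCs or PGCLCs kept their direction. These arrays are among those that gave the calls, so this is no independent check. Counts over all tested genes moved further. With log2(intensity + 16) they were 770 for day 2 minus day 1 EpiLCs (1201 in the main analysis) and 362 for day 3 minus day 2 (636). The replicate block gave 309 for day 2 EpiLCs minus epiblast (150), 774 for PGCs minus PGCLCs (452), 257 for embryo against culture (80), and 342, 240 and 385 for the effects of amplification on day 2 EpiLCs minus ESCs, EpiSCs minus EpiLCs and PGCLCs minus EpiLCs (124, 43 and 123). Fits of the compared groups alone gave 11 for day 2 EpiLCs minus epiblast, 459 for EpiSCs minus epiblast (1823), 0 for PGCs minus PGCLCs, and 2 and 14 for the second and the third amplification effect. Without the amplified EpiSC arrays the counts were 266, 692 and 177 for day 2 EpiLCs minus epiblast, PGCs minus PGCLCs and embryo against culture. The floor at the 40th percentile gave 136 for embryo against culture and 245, 143 and 250 for the amplification effects, and the second of these was 77 with log2(intensity + 16), 70 with no filter and 81 with the mean of probe sets. Leaving out single arrays gave 659 to 911 for amplified day 2 EpiLCs minus ESCs (1329), 1035 to 1083 for epiblast minus ESCs (1844), 23 to 69 for day 2 EpiLCs minus epiblast, 845 to 3444 for EpiSCs minus epiblast, 1013 to 1332 for PGCLCs minus day 2 EpiLCs (1985), 794 to 1108 for PGCs minus epiblast (1635), 91 to 284 for PGCs minus PGCLCs, 1241 to 1560 for PGCs minus ESCs (2208), 12 to 91 for embryo against culture, and 34 to 169, 10 to 2557 and 40 to 280 for the amplification effects. The block by array code gave 284 for the first amplification effect. The cause of these shifts was not tested.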
